A study of Homo sapiens with 17 samples.

Results

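The circadian clock genes described here are 10 of the 60662 genes in the count table, chosen by name: the activators ARNTL and CLOCK, the repressors PER1, PER2, PER3, CRY1 and CRY2, the nuclear receptors NR1D1 and NR1D2, and the output factor DBP. No measured value entered that choice, but it was made with earlier results of these data known. All 10 passed the filter on low counts in each of the 8 comparisons below. Their levels were measured in 17 RNA-seq libraries of Ishikawa cells, an established line from a human endometrial adenocarcinoma, used in place of uterine epithelium.

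All cultures were harvested at 24 h. Control cultures (n = 3) received basal medium. Nap cultures (n = 2) received a vehicle component that the labels call Nap and do not define. Vehicle cultures (n = 3) carry both Nap and ethanol (EtOH) in their titles. The treatment label gives 70% ethanol, and the text of the study also gives another value. P4 cultures (n = 3) received Nap and progesterone (P4). Its concentration is not settled, since the labels list 0.1 and 1.0 mg/ml and the text of the study also gives another. Ethanol is named only for the vehicle cultures, so progesterone and ethanol cannot be told apart in the comparison of P4 with vehicle. A further 6 libraries came from cultures given the recombinant human enzyme PSAT1, 3 with and 3 without progesterone. The titles and treatment labels of these libraries contradict their column names in the count table, so which set received progesterone is not settled. They are named here by title, as the sets titled PSAT1 and titled PSAT1_P4 (n = 3 each), and each set is 1 group under either label. All groups are 1 cell line, and the time of day at harvest and any synchronisation of the cells are not given in the sources used here.

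In mammalian cells ARNTL (also called BMAL1) and CLOCK pair on E-box elements and switch on the PER and CRY genes, whose proteins return to the nucleus and block the pair. A second loop runs through the NR1D receptors (REV-ERB), which repress ARNTL, and the ROR receptors, which activate it through the same elements. DBP and related factors carry the rhythm to output genes through D-box elements, and the endometrium is among the tissues in which these genes cycle. A single harvest time gives a level of each gene and not its phase.

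Total counts per library ranged from 4999521 in a vehicle culture to 19704493 in a control culture. Levels are given as CPM (counts scaled to a common library size) after TMM normalisation over the 17 libraries. The epithelial markers EPCAM, CDH1, KRT8, KRT18 and KRT19 summed to between 927 and 1368 CPM in every library, with 927 to 1079 CPM in P4 and 1169 to 1172 CPM in vehicle cultures. They did not move together. On average KRT8 (248 against 398 CPM), KRT18 (204 against 255 CPM) and KRT19 (59.1 against 74.9 CPM) were lower in P4 than in vehicle. CDH1 (315 against 264 CPM) and EPCAM (188 against 177 CPM) were higher. Leukocyte markers (PTPRC, CD14, CD3E) stayed at or below 1.05 CPM in sum. Endothelial markers (PECAM1, VWF) summed to 0.172 to 0.381 CPM in P4 and 0.442 to 1.05 CPM in vehicle cultures, and to at most 1.60 CPM in any library. The stromal sum was 79.9 to 134 CPM in the P4 cultures and 82.9 to 114 CPM in the set titled PSAT1, against 284 to 305 CPM in the vehicle cultures and 354 to 528 CPM in the remaining 3 groups. COL1A2, a collagen chain, made up most of it (55.1 to 113 CPM in P4 and 252 to 278 CPM in vehicle). COL1A1, another collagen chain, was at 20.4 to 24.7 CPM in P4, 26.4 to 32.6 CPM in vehicle and 22.1 to 30.0 CPM in control cultures, and the stromal markers DCN and LUM reached at most 0.157 and 1.40 CPM. The part of these marker differences in the clock gene results was not tested. In bulk RNA, fewer cells of a type and less RNA per cell cannot be told apart.

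Because the loops act through short elements near start sites, the start regions are shown first for NR1D2 and NR1D1, the genes with the largest fold changes between P4 and vehicle, and for PER1 and PER3, the other genes with a CACGTG or TTATGTAA match. ARNTL and DBP had larger fold changes than PER1 and PER3 but no match before the start site. RefSeq (GRCh38.p14) gave 15 windows for the 10 genes, each with 250 bases before and 50 bases after a start site. The windows of 1 gene can overlap. Both strands were searched for CACGTG (the E-box), CACGTT (a variant E-box), AGGTCA (the core of the ROR and REV-ERB element), TTATGTAA (a D-box) and TGACGTCA (a cAMP response element). No motif of the list holds another. Capitals mark the matches, each stretch runs from the far end of the window to the first exonic base of the gene or to the start site, and a match is a description of letters, not a bound site.
NR1D2, the start site inside the gene (chr3:23945871-23946120, plus strand, intronic in GENCODE 29): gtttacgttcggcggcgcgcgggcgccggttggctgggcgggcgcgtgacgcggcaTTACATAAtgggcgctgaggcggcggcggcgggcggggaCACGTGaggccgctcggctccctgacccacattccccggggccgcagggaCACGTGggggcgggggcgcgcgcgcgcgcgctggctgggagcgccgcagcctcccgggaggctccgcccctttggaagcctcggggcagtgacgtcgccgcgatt
PER1 (chr17:8152436-8152654, minus strand, intronic in GENCODE 29): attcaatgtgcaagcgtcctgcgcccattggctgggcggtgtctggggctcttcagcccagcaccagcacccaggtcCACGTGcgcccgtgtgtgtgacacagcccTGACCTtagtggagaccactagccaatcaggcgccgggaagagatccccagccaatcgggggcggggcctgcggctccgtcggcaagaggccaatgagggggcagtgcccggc
PER3 (chr1:7784041-7784290, plus strand, upstream of the gene): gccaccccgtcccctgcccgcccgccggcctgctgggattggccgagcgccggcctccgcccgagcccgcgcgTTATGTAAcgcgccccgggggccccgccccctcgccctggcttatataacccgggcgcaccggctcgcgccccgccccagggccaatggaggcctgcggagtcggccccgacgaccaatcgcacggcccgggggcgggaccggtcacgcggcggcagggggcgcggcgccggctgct
NR1D1 (chr17:40100726-40100839, minus strand, upstream of the gene): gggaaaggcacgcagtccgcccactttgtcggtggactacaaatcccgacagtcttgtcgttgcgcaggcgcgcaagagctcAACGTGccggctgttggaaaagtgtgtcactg

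NR1D2 held 2 E-boxes, with first bases at -155 and -105 from the start site, and a D-box on the antisense strand at -194. PER1 held 1 E-box at -173 and an antisense AGGTCA at -144. PER3 held a D-box at -177, and NR1D1 an antisense CACGTT at -168. CACGTT was also found for PER2 (-197), CRY1 (-89), CRY2 (-188) and CLOCK (-187), and AGGTCA for CRY2 (-62 and -64 in its 2 windows) and ARNTL (32, after the start site). DBP had no match. The other window of NR1D2, which spans the annotated start of the gene, also had none. Nor had the other windows of PER3, ARNTL and CLOCK. CACGTG thus occurred in 2 of the 15 windows and in 7.26% of all 35116 RefSeq windows, CACGTT in 5 and in 5.34%, AGGTCA in 4 and in 13.8%, TTATGTAA in 2 and in 0.886%, and TGACGTCA in 0 and in 1.85%.

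The main comparison asked how clock gene levels in progesterone-treated cells differed from those in vehicle controls. Of the 10 genes, 9 were higher in P4 cultures (adjusted p under 0.05, edgeR quasi-likelihood test, adjusted over all genes tested) and none was lower. The same threshold called 26.6% of all 16540 genes tested higher and 26.5% lower. Beyond 1 log2 unit, 4 clock genes (NR1D2, NR1D1, ARNTL and DBP) were called higher, against 5.34% of all genes higher and 7.03% lower. In 6 of 10, every P4 library lay above every vehicle library, against 30.7% of all genes. The median log2 fold change was 0.66 over the 10 genes and -0.01 over all genes tested. CRY1 was the gene not called.

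**Figure D1:**
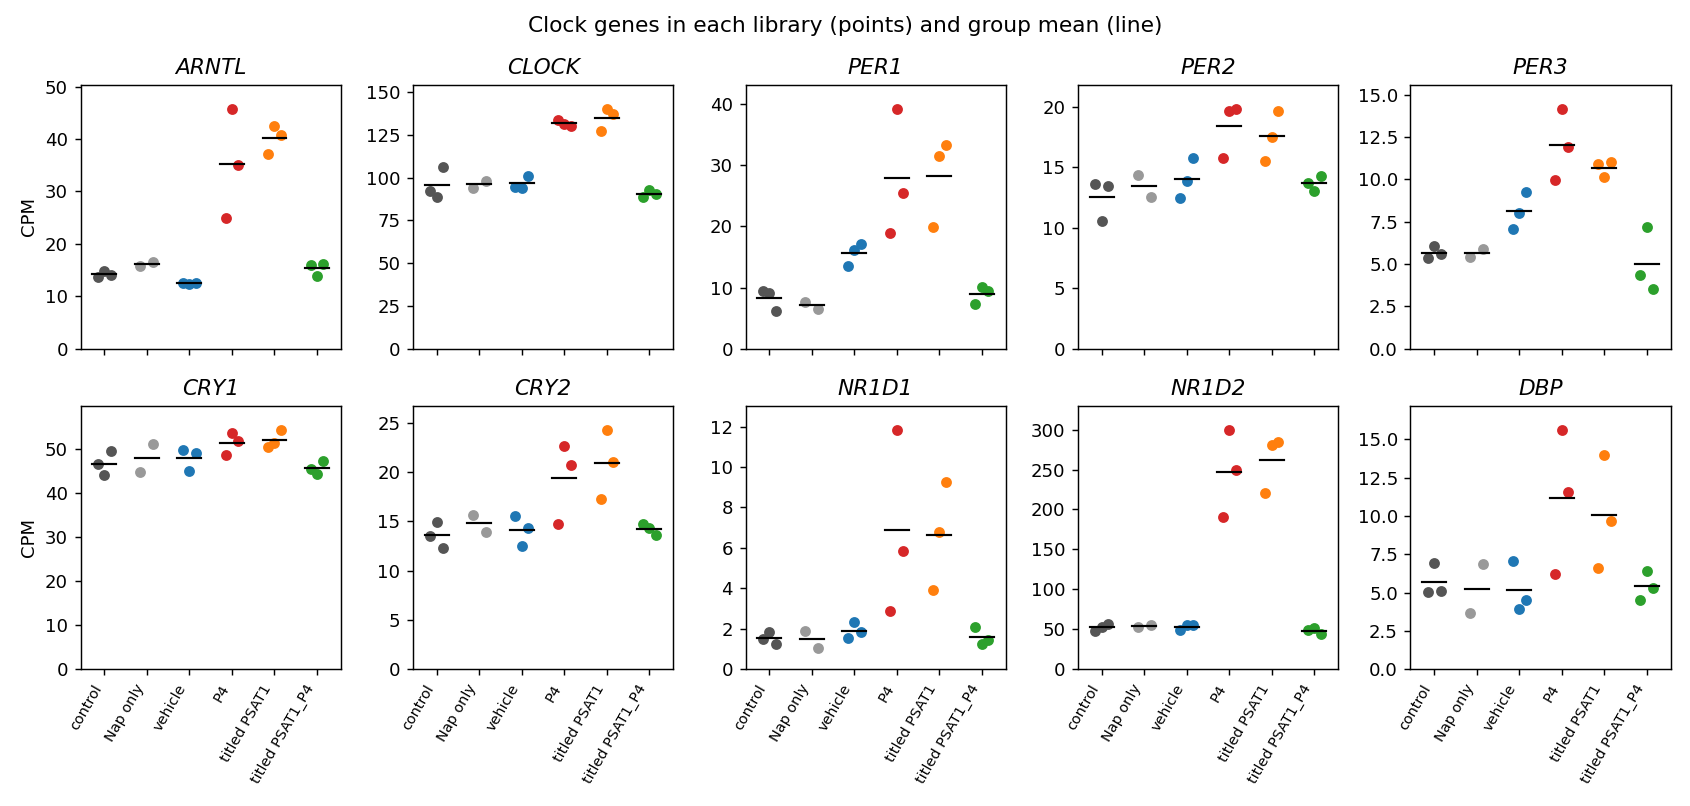
Level of each clock gene (vertical axis, CPM, starting at 0) in each of 17 libraries (points), with the mean of each group (line). In NR1D2 the P4 and titled PSAT1 libraries lie between 191 and 299.9 CPM and all others at or below 57.3 CPM, while the CRY1 points of all groups lie between 44.0 and 54.4 CPM.

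The activators came first in the loop and differed in size. ARNTL (chr11:13276652-13387266) encodes a partner with which CLOCK binds E-boxes. Its level was 12.6, 12.3 and 12.6 CPM in vehicle replicates 1 to 3 and 24.9, 45.8 and 35.0 CPM in P4 replicates 1 to 3. The groups did not overlap, and the P4 libraries spread far more widely than the vehicle libraries. The log2 fold change was 1.48 ± 0.19 (SE, n = 3 per group), a 2.79-fold higher level (edgeR adjusted p = 5.3e-05). CLOCK (chr4:55427903-55547138), its partner, was at 94.5, 94.1 and 101 CPM in vehicle and at 134, 131 and 130.5 CPM in P4. Its groups also lay apart, but by a log2 fold change of only 0.43 ± 0.06 (edgeR adjusted p = 1.2e-04). The ratio of ARNTL to CLOCK was therefore set side by side, on the log2 CPM scale. It was -2.95 ± 0.05 in vehicle and -1.95 ± 0.46 in P4 cultures (SD, n = 3), a difference of 1.00 (exact permutation test, two-sided, p = 0.1, which is the smallest that 3 against 3 allows; 0.167 adjusted over 5 ratios). The 5 ratios were chosen after values were seen. The paralogue ARNTL2 was more abundant than ARNTL in both groups, at 121 CPM on average in vehicle and 100 CPM in P4 cultures. It was lower in P4 cultures (log2 fold change -0.29 ± 0.07, edgeR adjusted p = 0.0035). The log2 ratio of ARNTL to ARNTL2 differed by 1.73 (exact permutation test, p = 0.1, adjusted 0.167).

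The NR1D receptors had the largest fold changes of the 10. NR1D2 (REV-ERB beta, chr3:23945260-23980618) is a heme-binding repressor of ARNTL. It was at 49.0, 55.8 and 55.5 CPM in vehicle and 191, 299.9 and 249.7 CPM in P4 cultures. The lowest P4 library was above 3 times the highest vehicle library, with a log2 fold change of 2.18 ± 0.14, or 4.54-fold (n = 3 per group, edgeR adjusted p = 8.9e-07). NR1D1 (REV-ERB alpha, chr17:40092787-40100725), its close relative, was scarcer, at 1.53, 2.36 and 1.85 CPM in vehicle and 2.88, 11.8 and 5.87 CPM in P4. These levels rest on 8 to 32 and 30 to 138 counts per library. All P4 libraries were above all vehicle libraries, but P4 replicate 1 lay near the vehicle range, and the log2 fold change of 1.77 had the widest error of the 10 (SE 0.48, edgeR adjusted p = 0.011). The log2 ratio of NR1D2 to NR1D1 was 5.37 ± 0.70 in P4 and 4.82 ± 0.23 in vehicle, with overlapping libraries (SD, n = 3, exact permutation p = 0.3, also adjusted, in a design that cannot go below 0.1). NR1D1 shares 263 exonic bases with THRA, a thyroid hormone receptor gene on the opposite strand. The strand setting of the counting is not stated, so reads in this stretch cannot be assigned. THRA had a log2 fold change of -0.23 ± 0.11 (edgeR adjusted p = 0.094).

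The repressors of the PER family were all higher, by smaller folds. PER1 (chr17:8140472-8156506), a gene also induced quickly by hormones and serum, was at 13.6, 16.1 and 17.2 CPM in vehicle and 18.9, 39.2 and 25.5 CPM in P4. The groups did not overlap, and the log2 fold change was 0.80 ± 0.23 (edgeR adjusted p = 0.016). PER3 (chr1:7784320-7845177) followed with 7.08, 8.03 and 9.25 CPM in vehicle and 9.99, 14.2 and 11.9 CPM in P4, again without overlap (log2 fold change 0.53 ± 0.16, edgeR adjusted p = 0.014, and 0.061 without vehicle replicate 2). PER2 (chr2:238244038-238290102) was at 12.4, 13.8 and 15.8 CPM in vehicle and 15.8, 19.7 and 19.8 CPM in P4, and the groups touched. Its log2 fold change of 0.36 ± 0.13 passed with edgeR (adjusted p = 0.030) but not with DESeq2 (adjusted p = 0.052), and with edgeR it was 0.085 and 0.11 without vehicle replicates 1 and 2 and 0.058 and 0.12 without P4 replicates 2 and 3. The log2 ratio of PER1 to PER2 was 0.16 ± 0.05 in vehicle and 0.54 ± 0.40 in P4 (SD, n = 3, exact permutation p = 0.1, adjusted 0.167).

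The cryptochromes, which close the negative limb with the PER proteins, differed from each other in call. CRY1 (chr12:106991364-107093829) was at 49.8, 45.1 and 49.0 CPM in vehicle and 48.6, 53.7 and 51.9 CPM in P4. Its groups overlapped, and the log2 fold change of 0.09 ± 0.08 was not called (edgeR adjusted p = 0.34; DESeq2 adjusted p = 0.48). CRY2 (chr11:45847118-45883248) was at 15.5, 12.5 and 14.3 CPM in vehicle and 14.7, 22.7 and 20.7 CPM in P4, where replicates 2 and 3 were above the vehicle range and replicate 1 was inside it (log2 fold change 0.47 ± 0.15, edgeR adjusted p = 0.021). The adjusted p of CRY2 was 0.12 and 0.059 without vehicle replicates 2 and 3, and 0.053 and 0.085 without P4 replicates 2 and 3. The log2 ratio of CRY2 to CRY1 was -1.77 ± 0.08 in vehicle and -1.43 ± 0.26 in P4 (SD, n = 3, exact permutation p = 0.2, adjusted 0.25). With 3 libraries per group this permutation test cannot give a p under 0.1, so whether the 2 genes differ was not settled.

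DBP (chr19:48630030-48637438), a PAR-domain factor and a direct E-box target, was at 7.08, 3.90 and 4.50 CPM in vehicle and 6.24, 15.6 and 11.6 CPM in P4. P4 replicate 1 lay below the highest vehicle library, so the groups overlapped, yet the log2 fold change of 1.21 ± 0.32 was called (edgeR adjusted p = 0.0084). DBP shares 661 exonic bases with SPHK2 on the opposite strand, a sphingosine kinase gene with a log2 fold change of -0.10 ± 0.14 (edgeR adjusted p = 0.55).

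P4 replicate 1 was the lowest of the 3 P4 libraries in 8 of the 9 genes called, CLOCK being the exception. The same library was lowest in 68.5% of all 4397 genes called higher, so its place was not particular to the clock genes. It was the library of lowest total count among the P4 cultures, with 10786880 counts.

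**Figure D2:**
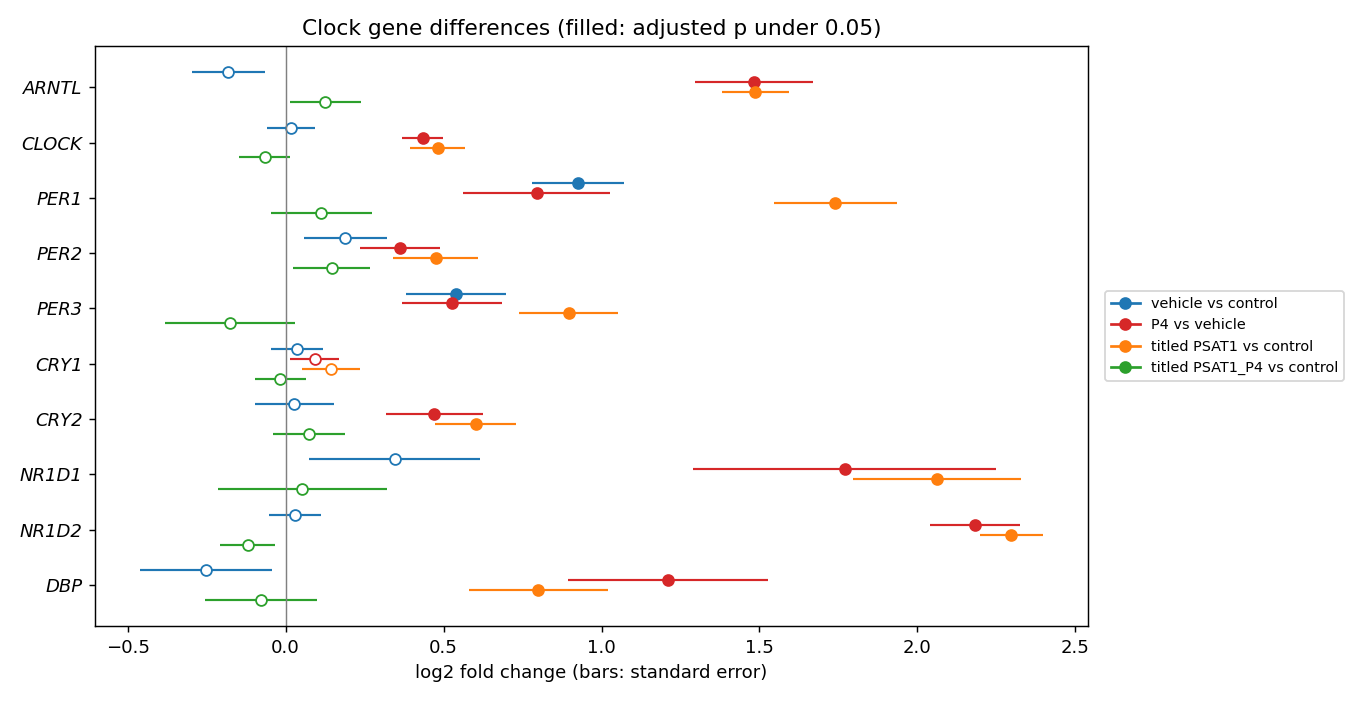
Log2 fold change of each clock gene (horizontal axis, bars: standard error) in 4 comparisons, filled where the adjusted p was under 0.05. P4 against vehicle and titled PSAT1 against control each have 9 filled points, vehicle against control has PER1 and PER3, and titled PSAT1_P4 against control has none.

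Between vehicle and control cultures 2 of the 10 clock genes were called, PER1 and PER3. PER2 was not called (log2 fold change 0.19 ± 0.13, edgeR adjusted p = 0.31). PER1 was at 9.42, 9.14 and 6.24 CPM in control replicates and was higher in vehicle by a log2 fold change of 0.93 ± 0.15 (n = 3 per group, edgeR adjusted p = 1.4e-04). PER3 was at 5.38, 6.08 and 5.57 CPM in controls and was higher in vehicle by 0.54 ± 0.16 (edgeR adjusted p = 0.018). All vehicle libraries were above all control libraries in both genes. Over all 16673 genes tested, 11.9% were called higher and 10.7% lower. The remaining 8 clock genes were not called, with log2 fold changes between -0.25 (DBP) and 0.35 (NR1D1), and the median of the 10 was 0.03. The PER3 call rested on single libraries: its adjusted p was 0.061 without vehicle replicate 2 and 0.16 without vehicle replicate 3, and the count of clock genes called was then 1. The vehicle libraries enter both this comparison and that of P4 with vehicle. Set against the controls instead, P4 cultures had log2 fold changes of 1.72 in PER1 and 1.06 in PER3, 2.20 in NR1D2, 2.11 in NR1D1, 1.29 in ARNTL and 0.94 in DBP.

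Nap cultures were compared with control cultures to see whether Nap alone moved these genes. None of the 10 was called by edgeR or by DESeq2, and none had an unadjusted p under 0.05. Over all genes the share called was 0% with edgeR, where 217 genes had an unadjusted p under 0.05, and DESeq2 called 1 gene. The clock gene log2 fold changes lay between -0.22 and 0.20, with standard errors of 0.10 to 0.33 and only 2 Nap libraries.

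The 2 sets given PSAT1 differed from each other in 9 of 10 clock genes. NR1D2 was at 221, 281 and 285 CPM in the libraries titled PSAT1 and 49.0, 51.3 and 44.3 CPM in those titled PSAT1_P4, a log2 fold change of 2.42 ± 0.09 (edgeR adjusted p = 2.7e-13). ARNTL was at 37.2, 42.5 and 40.7 CPM against 15.99, 13.8 and 16.2 CPM (1.36 ± 0.10, adjusted p = 2.9e-10), and NR1D1 at 3.93, 6.81 and 9.26 CPM against 2.10, 1.27 and 1.47 CPM (2.01 ± 0.28, adjusted p = 8.2e-06). PER1, at 19.9, 31.6 and 33.3 CPM against 7.32, 10.1 and 9.47 CPM, was higher by 1.63 ± 0.18. PER3 (1.07 ± 0.20), DBP (0.88 ± 0.22), CLOCK (0.55 ± 0.06), CRY2 (0.53 ± 0.12) and PER2 (0.33 ± 0.11) were called in the same direction, and CRY1 was not (0.16 ± 0.07, edgeR adjusted p = 0.065). Without titled PSAT1 replicate 3 the adjusted p of PER2 was 0.090, and without replicate 1 of the same set all 10 genes were called. In all 10 genes the libraries titled PSAT1 lay above those titled PSAT1_P4. The share of all genes separated in this way was not counted for this comparison, so this count has no background to be judged by. Of all 16586 genes tested, 30.7% were called higher and 31.6% lower in this comparison. The direction is given by title, and reading the column names instead would exchange the names of the 2 sets and leave each value with its libraries.

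Against controls, the libraries titled PSAT1 were higher in 9 clock genes, all but CRY1 (0.14 ± 0.09, edgeR adjusted p = 0.17), while 30.0% of all genes were called higher and 30.2% lower. The log2 fold changes were largest in NR1D2 (2.30 ± 0.10), NR1D1 (2.06 ± 0.27), PER1 (1.74 ± 0.19) and ARNTL (1.49 ± 0.11). DBP, at 6.58, 14.0 and 9.68 CPM against 5.06, 6.96 and 5.12 CPM in controls, was the least firm of the 9: it overlapped the controls (0.80 ± 0.22, edgeR adjusted p = 0.0042) and its adjusted p was 0.0504 without titled PSAT1 replicate 2. The libraries titled PSAT1_P4 had 0 clock genes called against the same controls by edgeR and by DESeq2, and none with an unadjusted p under 0.05. Over all genes 0% were called there with edgeR, with 1004 genes at an unadjusted p under 0.05, and DESeq2 called 0. Their clock gene log2 fold changes ranged from -0.18 (PER3) to 0.15 (PER2).

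Compared with the P4 cultures, the libraries titled PSAT1 had 0 clock genes called by edgeR and DESeq2 and none with an unadjusted p under 0.05. Over all genes 0% were called with edgeR, 199 had an unadjusted p under 0.05, and DESeq2 called 0. The clock gene log2 fold changes lay between -0.18 (PER3) and 0.18 (ARNTL), but standard errors reached 0.46 in NR1D1, so a difference of that size was not detectable there. The libraries titled PSAT1_P4 were lower than the P4 cultures in 9 clock genes, against 28.3% of all genes lower and 28.8% higher. NR1D2 fell by 2.34 ± 0.14 on the log2 scale, NR1D1 by 2.07 ± 0.45, PER1 by 1.62 ± 0.23, PER3 by 1.25 ± 0.22, ARNTL by 1.18 ± 0.18 and DBP by 1.03 ± 0.26, and CRY1 was not called (-0.15 ± 0.08, edgeR adjusted p = 0.13). PER2 missed the threshold without P4 replicate 3 (adjusted p = 0.056), and CRY2 without P4 replicate 2 or 3 (0.070 and 0.083) or titled PSAT1_P4 replicate 2 or 3 (0.055 and 0.071). Without P4 replicate 1 all 10 genes were called.

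**Figure D3:**
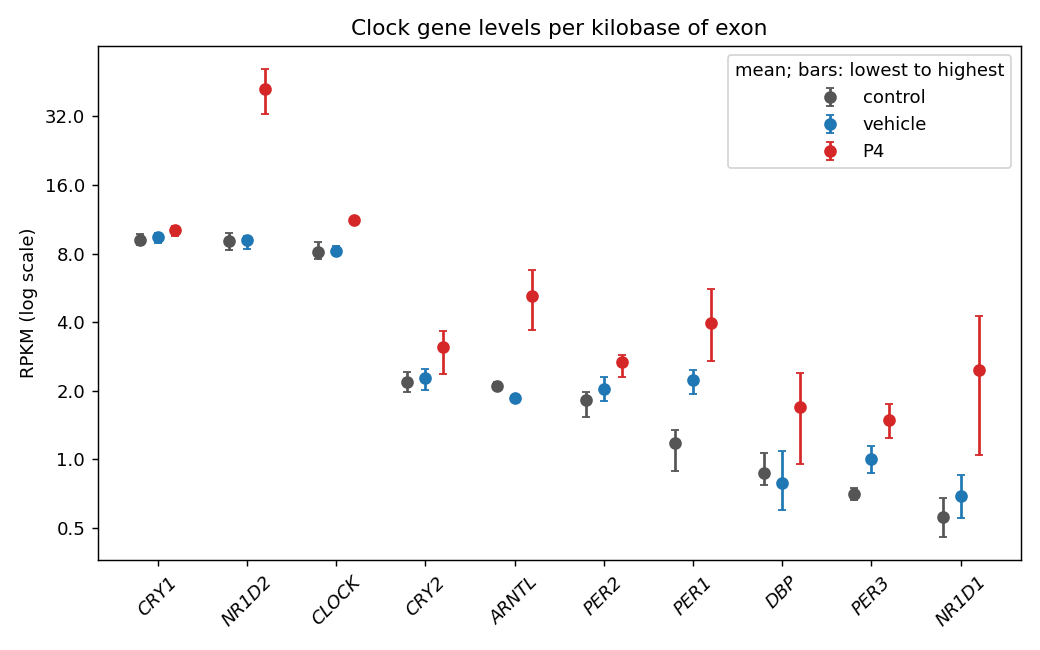
Mean level of each clock gene per kilobase of exon (vertical axis, RPKM, log scale) in control, vehicle and P4 cultures (n = 3 each, bars from the lowest to the highest library), ordered by the control mean. NR1D2 stands at 9.09 RPKM in controls and 42.4 RPKM in P4 cultures.

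To compare levels between genes, CPM was divided by exon length. This length is the union of all annotated exons of a gene, 6544 bases for DBP, and can exceed that of the transcripts present. Which transcripts were present was not measured, so the order between genes depends on this choice of length. In control cultures CRY1 (9.22 RPKM), NR1D2 (9.09) and CLOCK (8.14) were highest and their library ranges overlapped. CRY2 (2.19 RPKM), ARNTL (2.11) and PER2 (1.82) came next, with ranges of 1.98 to 2.40, 2.03 to 2.19 and 1.53 to 1.98 RPKM. PER1 (1.18 RPKM) overlapped DBP (0.873), and PER3 (0.701) overlapped NR1D1 (0.558). In P4 cultures the order was headed by NR1D2, whose 32.8 to 51.5 RPKM lay apart from CLOCK (11.1 to 11.4 RPKM) and CRY1 (9.60 to 10.6 RPKM). ARNTL (5.24 RPKM) and PER1 (3.98 RPKM) came next, with overlapping ranges. CRY2 (3.12), PER2 (2.68), NR1D1 (2.48), DBP (1.70) and PER3 (1.48 RPKM) followed, and none of these neighbours was separated from the next. By group mean PER3 was the lowest of the 10 in P4 cultures and NR1D1 the lowest in controls, though each overlapped the gene next to it.

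A further list of 23 genes of the clock and its inputs was measured beside the 10, of which 22 passed the filter in P4 against vehicle (FBXL21, at 0.469 and 0.988 CPM on average, did not). In this comparison 13 were higher and 1 was lower, set against the shares of 26.6% and 26.5% given above for all genes. Their median log2 fold change was 0.38. All 3 E-box repressors tested were higher: BHLHE40 (DEC1) with 9.95, 14.7 and 13.3 CPM in vehicle and 39.1, 93.9 and 71.7 CPM in P4 (log2 fold change 2.37 ± 0.36, edgeR adjusted p = 0.0020), BHLHE41 (2.00 ± 0.35, at 0.402 to 0.574 CPM in vehicle and 1.60 to 2.32 CPM in P4) and CIART (1.45 ± 0.24). These proteins act against ARNTL and CLOCK at E-boxes or on the pair itself.

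All 3 D-box factors of the list were also higher, where 26.6% of all genes tested were called higher. NFIL3 (E4BP4), the repressor that competes with DBP for D-boxes, was at 11.9, 11.8 and 10.4 CPM in vehicle and 47.6, 71.1 and 62.2 CPM in P4, without overlap (2.41 ± 0.14, edgeR adjusted p = 9.2e-08). The activators of the same element, HLF (0.94 ± 0.30) and TEF (0.42 ± 0.14), had smaller folds, and the fold of DBP (1.21) lay between those of NFIL3 and HLF. Of the ROR receptors described here, RORA was higher, from 6.31, 6.56 and 6.67 CPM in vehicle to 19.8, 26.9 and 23.9 CPM in P4 (1.83 ± 0.14, edgeR adjusted p = 6.0e-07), whereas RORB (0.02 ± 0.14) was not called. Both arms of the second loop, the repressing NR1D genes and the activating RORA, were thus higher in the same cultures, as was ARNTL.

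**Figure D4:**
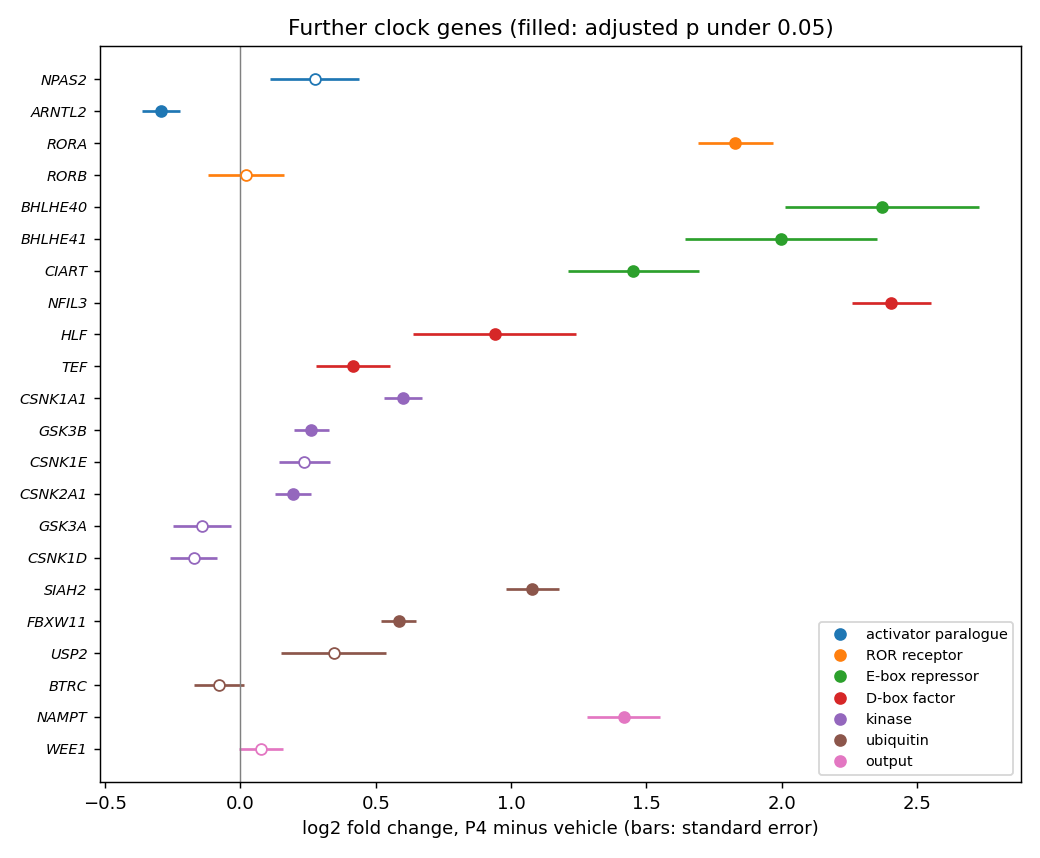
Log2 fold change of 22 further clock genes, P4 minus vehicle (horizontal axis, bars: standard error), coloured by role and filled where the adjusted p was under 0.05. The 7 genes beyond 1 log2 unit are NFIL3, BHLHE40, BHLHE41, RORA, CIART, NAMPT and SIAH2, and the 1 gene called lower is ARNTL2.

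In P4 against vehicle 26.6% of all genes tested were called higher and 26.5% lower. The small counts that follow are to be read beside these shares and do not set a class of genes apart. Of the 6 kinases that mark PER, CRY or NR1D proteins for turnover or transport, 3 were higher: CSNK1A1 (0.60 ± 0.07), GSK3B (0.26 ± 0.07) and CSNK2A1 (0.20 ± 0.07). CSNK1D (-0.17 ± 0.09), CSNK1E (0.24 ± 0.09, edgeR adjusted p = 0.051) and GSK3A (-0.14 ± 0.11) were not called. Among 4 genes of the ubiquitin system, 2 were higher: SIAH2 (1.08 ± 0.10), a ligase that acts on NR1D1 protein, and FBXW11 (0.58 ± 0.06), an adaptor for PER proteins. BTRC, the paralogue of FBXW11, had a log2 fold change of -0.08 ± 0.09, and USP2, a deubiquitinase, of 0.34 ± 0.19. Of the output genes, NAMPT, the enzyme of NAD salvage, was higher (1.42 ± 0.14, from 40.8 to 41.5 CPM in vehicle to between 86.6 and 137 CPM in P4), and WEE1, a cell cycle kinase, was not called (0.08 ± 0.08).

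In vehicle against control the list gave 2 calls among 22 genes tested: NPAS2, the paralogue of CLOCK (0.70 ± 0.22, edgeR adjusted p = 0.026) and CSNK1D (0.30 ± 0.09, adjusted p = 0.024), both higher, where 11.9% of all genes were called higher and 10.7% lower. NPAS2 was not called in P4 against vehicle (0.28 ± 0.16, edgeR adjusted p = 0.18). In the libraries titled PSAT1 against controls all 23 were tested, with 15 higher and 2 lower (ARNTL2 and FBXL21), against 30.0% and 30.2% of all genes. NFIL3 (2.48 ± 0.11), BHLHE40 (2.36 ± 0.17) and RORA (1.77 ± 0.21) were again beyond 1 log2 unit. None of the 22 tested was called in the libraries titled PSAT1_P4 against controls by edgeR or DESeq2, where 2 had an unadjusted p under 0.05.

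The protein-coding gene most like each clock gene was found by Pearson's r of log2 CPM over the 17 libraries. The search covered 13324 genes and left out the 10 clock genes themselves, so none of them could be the closest match of another. These libraries share their groups and fall into separate ranges of level, so r describes which groups were high, and no test was made. NR1D2 was most like SEL1L (r = 0.997), ARNTL like SART3 (0.989), CLOCK like NAB1 (0.989) and PER1 like PDLIM7 (0.987). NR1D1 was most like CHTOP (0.983), PER2 like OTUD4 (0.960), PER3 like CNNM2 (0.958), CRY2 like RBM6 (0.948), DBP like CIART (0.924) and CRY1 like ZNF800 (0.921). DBP was the gene of the 10 whose closest match was itself on the further clock list. After each library was set against its group mean, r between pairs of the 10 ran from -0.13 (NR1D1 and CLOCK) to 0.81 (NR1D1 and ARNTL), as a description over 17 libraries.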

How the data were processed

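RNA-seq of Ishikawa cells covered 17 cultures in 6 groups, and 0 columns of the count table were left out. The authors trimmed reads with Cutadapt, aligned them with Subread keeping unique reads, and deposited raw counts per gene (featureCounts, GENCODE 31); versions and the strand setting are not given in the sources used here. Genes were matched to GENCODE 29 by ID, with 2085 of 60662 not in that release. Each comparison was fitted on its own groups with edgeR 4.0.16 in R 4.3.3 (filterByExpr, minimum count 10, TMM, robust quasi-likelihood test), and a gene with a Benjamini-Hochberg adjusted p under 0.05 over all genes tested was called. The standard error of a log2 fold change was taken as its absolute value divided by the square root of the F statistic of this test. DESeq2 1.42.0, other scalings, filters, reference groups, the replicate number as a block and each replicate left out were alternatives. Figures used matplotlib 3.10.9. The fit was tested on simulated counts. Named genes were the 10 clock genes, listed clock genes, overlapping genes and the most similar gene of each. Some genes first considered for the further list are not reported here. The members and lists were chosen with earlier results of these data known. Replicates are labelled as biological, and p-values set group differences against the spread between these cultures of the same cell line. Replicate libraries differed by more than sampling noise (chi-square per degree of freedom 1.54 to 20.6).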

Additional observations from a re-analysis of the deposited data

How the results depend on the processing

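The count of clock genes called in P4 against vehicle was 8 or 9 of 10 with DESeq2, RLE or upper-quartile scaling, other filters, all 6 groups in the fit, or the control or Nap cultures as reference, and 6 to 9 with 1 replicate left out (6 without vehicle replicate 2, where PER2, PER3 and CRY2 were not called). NR1D2, ARNTL, CLOCK, DBP and PER1 were called in this comparison under every alternative. NR1D1 was called wherever it was tested. A filter that required each library to hold 10 or more counts removed it, since vehicle replicate 1 had 8. Of the log2 fold changes recomputed for P4 against vehicle, 137 stayed on their side of the threshold, 12 fell short of it (PER2, PER3 and CRY2) and 0 reversed. PER2 had an adjusted p of 0.081 with upper-quartile scaling, CRY2 of 0.094 with Nap as the reference, and DBP in titled PSAT1 against control of 0.058 with all 6 groups and 0.064 with Nap as the reference. In vehicle against control the count was 2 under every alternative but leaving out replicates, where it ranged from 1 to 2. The other settings gave 8 to 9 for titled PSAT1 against control, 8 to 10 for titled PSAT1 against titled PSAT1_P4 and 9 for titled PSAT1_P4 against P4. With 1 replicate left out the counts ranged from 8 to 9 for titled PSAT1 against control, 8 to 10 for titled PSAT1 against titled PSAT1_P4 and 7 to 10 for titled PSAT1_P4 against P4, and stayed 0 in the 3 comparisons with no call. Upper-quartile scaling moved the median of all genes in P4 against vehicle from -0.01 to -0.10 and the share of calls that were higher from 50.1% to 40.7%. With the replicate number as a block the counts were the same as without it, 9 in P4 against vehicle and 2 in vehicle against control, although over all genes Nap against control went from 0 to 48 calls with the block. Same-numbered deviations correlated at 0.02 on average in P4 against vehicle, at 0.10 in titled PSAT1 against P4 (1 pair at 0.29) and at 0.26 in Nap against control, which has only 2 pairs. No comparison with 3 pairs had every pair above 0.1, so the numbers were not taken to pair the cultures. NR1D1, at 8 to 32 counts per vehicle library, was the gene most limited by depth.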
